A study of Mus musculus with 12 samples.

Results

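Collagen chain genes were taken as every row of the count tables whose symbol has the form Col, a number, a and a number, which gave 44 of 23238 gene symbols. They were sorted by the structure of the protein into 11 fibrillar genes, 6 basement membrane genes (Col4), 6 beaded-filament genes (Col6), 9 FACIT genes and 12 others. RNA was sequenced from mouse lung in 12 libraries, 3 labelled NoIR (no irradiation) and 3 each taken 8, 11 and 14 days after irradiation (IR). The irradiated samples came from irradiated areas only, per the series description. The sources used here give no dose, strain, age or sex, and do not say from where the control tissue came. Replicates are numbered in the labels but not tied to animals, and the p-values therefore rest on a spread that may be only technical.

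Collagens are secreted or membrane proteins in which 3 chains wind into a helix. Fibrillar collagens, of which types I, III and V dominate in lung, are the tensile fibres of airways, vessels and alveolar walls and are made mainly by fibroblasts. Type IV collagen forms the sheet-like network of basement membranes. Its Col4a1 and Col4a2 chains assemble with each other in nearly all tissues, while Col4a3, Col4a4 and Col4a5 form a separate trimer of thin barriers such as the alveolus and the kidney glomerulus. Type VI collagen makes beaded microfilaments beside basement membranes, and FACIT collagens sit on the surface of fibrils.

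Libraries held 19624554 to 27765751 counts, and collagen genes took between 0.314% and 0.677% of them. Levels are given as CPM, counts per 1000000 of the scaled library size. The alveolar type 2 marker Sftpc lay between 18998 and 23000.4 CPM without irradiation and between 10782 and 12506 at 14 d, and the type 1 marker Ager at 3586 ± 241 and 1799 ± 238 CPM (SD, n = 3), so markers of lung epithelium were present in all groups. On the first principal component of all genes 11 d replicate 1 lay at 48.2, next to the 14 d libraries, and 11 d replicates 2 and 3 at 20.88 and 23.16. Macrophage markers summed to between 361 and 384 CPM without irradiation and between 3104 and 3154 CPM at 14 d, with 9 of 10 higher. Leukocyte markers summed to 194 to 280 and 896 to 1157 CPM, with 5 of 7 higher. The part of these shifts in the collagen values was not tested.

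Of the 44 genes 42 passed the expression filter of the test. The exceptions were the cartilage collagen genes Col9a1 and Col9a2. Col9a2 had group totals of 7 counts without irradiation and 9, 10 and 7 at 8, 11 and 14 d. Col9a1 held 1 count in controls, 1, then 0, and at 14 d 19, spread over all 3 libraries. The ratio of these summed counts at 14 d to those without irradiation was 21.2, with a 95% counting interval from 3.38 to 883.

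Changes are log2 differences in CPM from the quasi-likelihood test of edgeR, fitted on all 12 libraries and 16484 genes. A gene is said to have risen or fallen where its Benjamini-Hochberg adjusted p over all genes was below 0.05. At 8 d 13 of 42 collagen genes differed from unirradiated lung, 31.0% of them beside 23.6% of all genes, with 9 higher and 4 lower (13.0% and 10.6% of all genes). At 11 d there were 19 (45.2% beside 37.2%), 9 higher and 10 lower (19.4% and 17.8% of all genes). At 14 d there were 21 (50% beside 38.9%), 14 higher and 7 lower (20.0% and 18.9% of all genes). The higher genes include Col2a1 and Col22a1 at each time and Col6a6 at 14 d, which passed the expression filter only through irradiated libraries. Col24a1, higher at 14 d, passed it mainly through them. A joint test of the 4 groups called 20 (47.6% beside 39.2%). The median collagen change was 0.43 at 8 d, -0.05 at 11 d and 0.11 at 14 d, next to 0.01, -0.01 and 0.01 for all genes. Leaving out 11 d replicate 1 lowered the count at 11 d from 19 to 12. The 4 lower genes at 8 d became 1 without unirradiated replicate 1, unirradiated replicate 2 or 8 d replicate 2, and the 10 at 11 d became 5 without unirradiated replicate 1 or 11 d replicate 1. The 3 comparisons share the unirradiated libraries. The shares of all genes given here also stand beside the counts of the marker and pathway lists below. Bulk counts cannot tell fewer cells of a type from less RNA per cell.

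**Figure D1:**
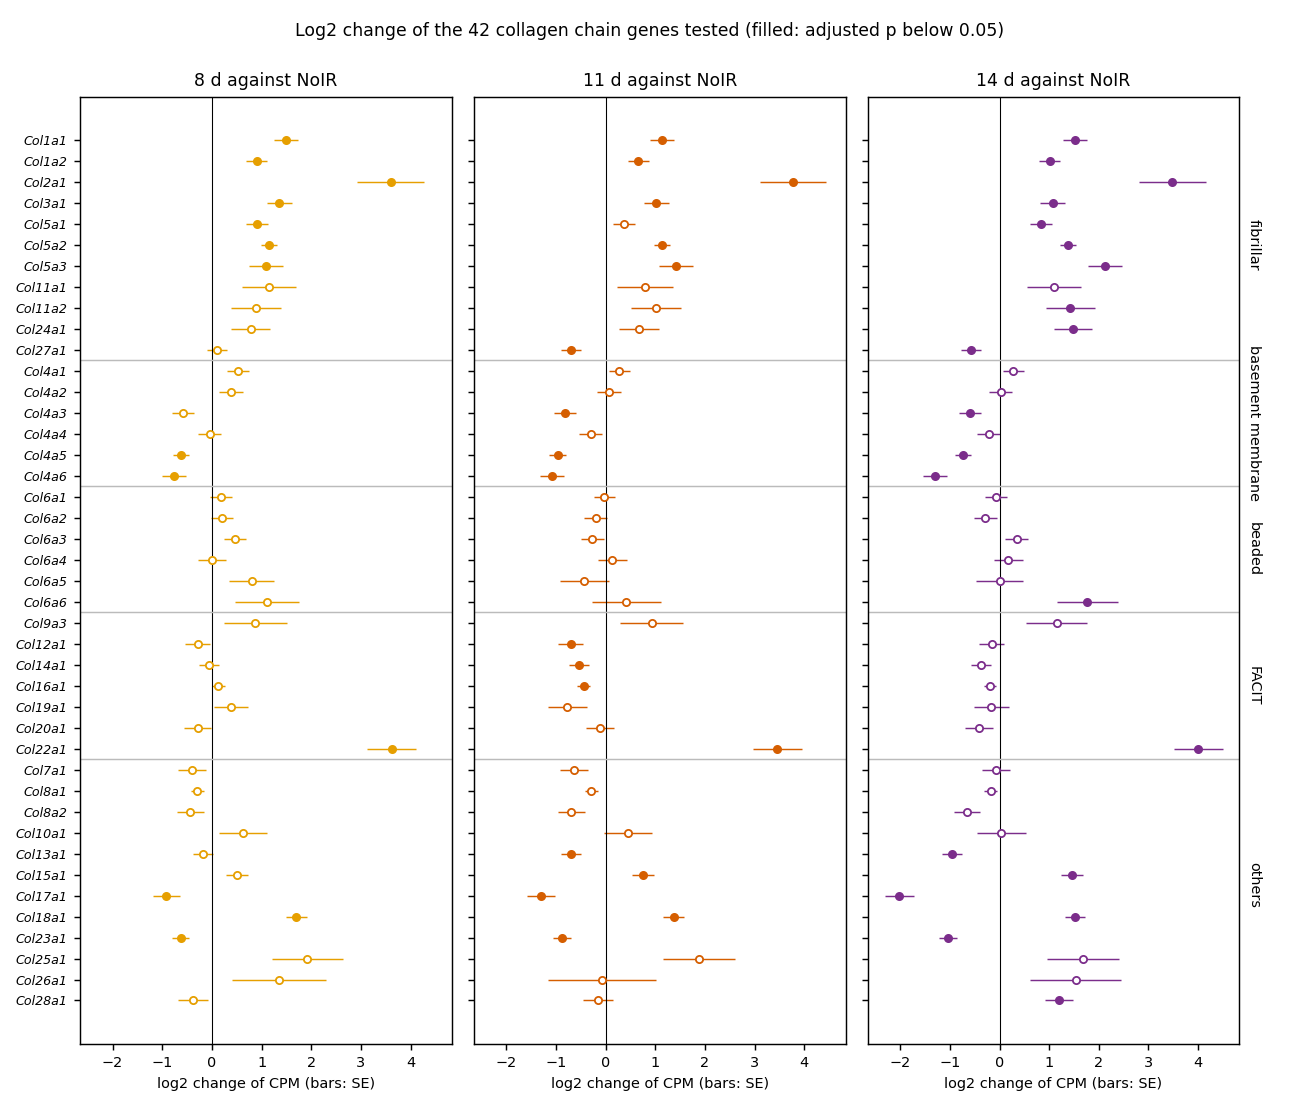
Log2 change in CPM against unirradiated lung (x axis) for the 42 collagen chain genes tested (y axis, grouped by class), with SE bars and filled points for adjusted p below 0.05. Fibrillar genes lie mostly right of 0 in all 3 panels, Col4a3, Col4a5 and Col4a6 left of it and Col4a1 and Col4a2 right of it or near it, with Col2a1 and Col22a1 farthest to the right.

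Fibrillar genes rose in 7 of 11 at 8 d, with none lower and a median log2 change of 1.09. They rose in 6 and fell in 1 at 11 d (median 1.02), and rose in 9 and fell in 1 at 14 d (median 1.38). Among them Col2a1, called each time, passed the expression filter only through irradiated libraries, and Col24a1, called at 14 d, mainly through them. These counts and medians are therefore not independent of the filter. Of the 6 basement membrane genes 2 were lower at 8 d, 3 at 11 d and 3 at 14 d, and none higher, with medians of -0.31, -0.56 and -0.41. Col4a1, Col4a2 and Col4a4 had no call at any time. Beaded-filament genes had 0 calls in edgeR at 8 d and 11 d, where 0 had an unadjusted p below 0.05 and DESeq2 also called 0, and 1 of 6 was higher at 14 d (medians 0.33, -0.11 and 0.09). Of 7 FACIT genes tested 1 rose at each time and 3 were called lower at 11 d. The FACIT gene that rose, Col22a1, and the beaded-filament one, Col6a6, also passed the filter only through irradiated libraries. The 12 others held 1 higher and 2 lower at 8 d, 2 and 3 at 11 d, and 3 and 3 at 14 d.

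As a share of all collagen counts, fibrillar genes took 22.2% ± 3.31 (SD, n = 3) in controls, and at 8 d this share was 36.4% ± 3.05, at 11 d 35.8% ± 4.98 and at 14 d 39.1% ± 3.36. Type IV genes took 56.4% ± 1.45, 47.4% ± 2.41, 48.4% ± 3.56 and 45.1% ± 3.61 at the same times. No irradiated library overlapped the unirradiated ones in either share. Beaded-filament genes went from 12.1% ± 0.465 to 9.01% ± 0.537 at 14 d and FACIT genes from 4.09% ± 0.825 to 2.74% ± 0.149. Shares within 1 total move against each other, so a lower share is no separate decrease. Summed type IV genes stood at 2212 ± 367 CPM in controls and 2711 ± 724, 2234 ± 122 and 2257 ± 558 at 8, 11 and 14 d. Summed fibrillar genes stood at 875 ± 229 CPM and then at 2046 ± 338, 1674 ± 369 and 1923 ± 231.

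**Figure D2:**
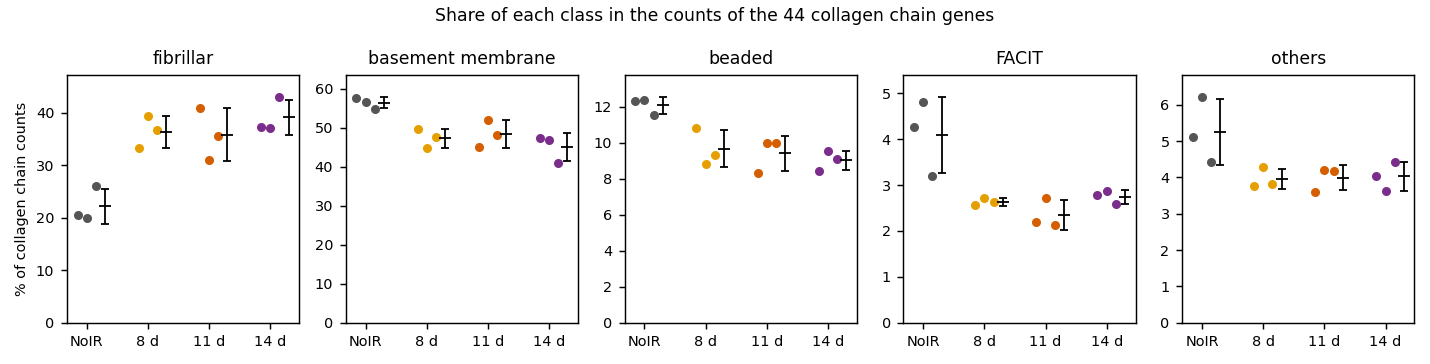
Percent of the counts of all 44 collagen chain genes (y axis) held by each class in each library (points), by group (x axis), with the mean and SD beside the points. The fibrillar share lies between 20.0% and 26.0% without irradiation and between 31.0% and 43.0% after it.

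Per kilobase of the principal transcript, which allows levels of different genes to be set side by side, Col4a1 led in every group. Without irradiation it stood at 142 ± 25.9 CPM per kb, followed by Col4a2 at 114 ± 17.2, Col3a1 at 75.9 ± 30.4, Col6a1 at 58.1 ± 8.12, Col6a2 at 42.1 ± 6.78 and Col1a2 at 39.2 ± 4.76. Col1a1 was in the ninth place with 16.1 ± 2.02. At 14 d Col4a1 with 173 ± 39.3 and Col3a1 with 159 ± 19.6 were within their spread of each other, ahead of Col4a2 with 116 ± 33.0 and Col1a2 with 79.0 ± 14.5. Col1a1 had moved to the sixth place with 46.4 ± 10.5 CPM per kb and Col5a2 to the seventh with 39.9 ± 1.53. All annotated exons of a gene can be longer than this transcript, 12426 against 5348 bases for Col1a2 and 6563 against 5930 for Col1a1. The annotation used for counting is not given, so the order and the size of the ratios below depend on the length chosen.

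Type I collagen is the main fibre of scars and mature stroma, built from Col1a1 and Col1a2 chains. Col1a1 (mm10 chromosome 11, 94936224 to 94953042, plus strand) stood at 97.0, 82.4 and 106 CPM in unirradiated replicates 1 to 3, at 340, 167 and 299 at 8 d, at 242, 170 and 213 at 11 d, and at 297, 323 and 205 at 14 d. All 9 irradiated libraries lay above all 3 controls, and the lowest at 8 d was replicate 2. The log2 changes were 1.50 (SE 0.24, adjusted p = 0.00053), 1.13 (SE 0.24, adjusted p = 0.0022) and 1.53 (SE 0.24, adjusted p = 0.00017). Col1a2 (chromosome 6, 4504814 to 4541544) lay at 221, 181 and 228 CPM, then at 412, 292 and 470, at 393, 248 and 353, and at 424, 500 and 345. Its log2 changes of 0.90 (SE 0.21), 0.66 (SE 0.21) and 1.01 (SE 0.21) were smaller than those of Col1a1. The Col1a2 rise at 11 d (adjusted p = 0.022) was lost without unirradiated replicate 2 (adjusted p = 0.088), 11 d replicate 1 (adjusted p = 0.10) or 11 d replicate 3 (adjusted p = 0.066).

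Col3a1 encodes the type III chain, which forms finer fibres in distensible tissue. It was the fibrillar gene of highest level per kilobase in every group and read 410, 259 and 597 CPM without irradiation, 1134, 911 and 1204 at 8 d, 1028, 619 and 921 at 11 d, and 780, 997 and 877 at 14 d. The controls spread more than 2-fold, yet the highest of them stayed below the lowest irradiated library, 11 d replicate 2. Col3a1 rose by 1.36 (SE 0.26, adjusted p = 0.0018), 1.02 (SE 0.26, adjusted p = 0.0068) and 1.07 (SE 0.26, adjusted p = 0.0045) on the log2 scale.

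Type V collagen sits inside type I fibrils and sets their diameter. Col5a2 went from 114, 76.6 and 114 CPM to 217, 230 and 227 at 8 d, 268, 186 and 216 at 11 d, and 262, 275 and 256 at 14 d. Its log2 changes were 1.14, 1.13 and 1.38 (SE 0.16 to 0.17, adjusted p = 0.00022, 0.00011 and 1.4e-05). Col5a1, the partner chain, went from 32.0 ± 7.28 CPM to 59.7 ± 13.9 at 8 d and 57.2 ± 11.7 at 14 d, both calls, and stood at 41.2 ± 7.72 at 11 d (log2 change 0.37, adjusted p = 0.21). Col5a3, a minor type V chain, read 1.58, 1.84 and 1.26 CPM without irradiation, 2.86, 2.66 and 4.46 at 8 d, 6.47, 2.34 and 3.73 at 11 d, and 7.42, 7.77 and 5.26 at 14 d. Its change grew from 1.09 at 8 d (SE 0.35, adjusted p = 0.034) to 2.12 at 14 d (SE 0.34, adjusted p = 0.00018), and the 14 d level stood above the 8 d level by 1.03 (SE 0.32, adjusted p = 0.044, beside 15.4% of all genes called between these times). The 8 d rise was lost without any 1 of unirradiated replicates 1, 2 and 3 or 8 d replicate 3 (adjusted p between 0.057 and 0.14). The difference between 8 d and 14 d was lost without replicate 1 or 2 of either time (adjusted p between 0.11 and 0.13), with library size alone (adjusted p = 0.06) and with a replicate block (adjusted p = 0.059).

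**Figure D3:**
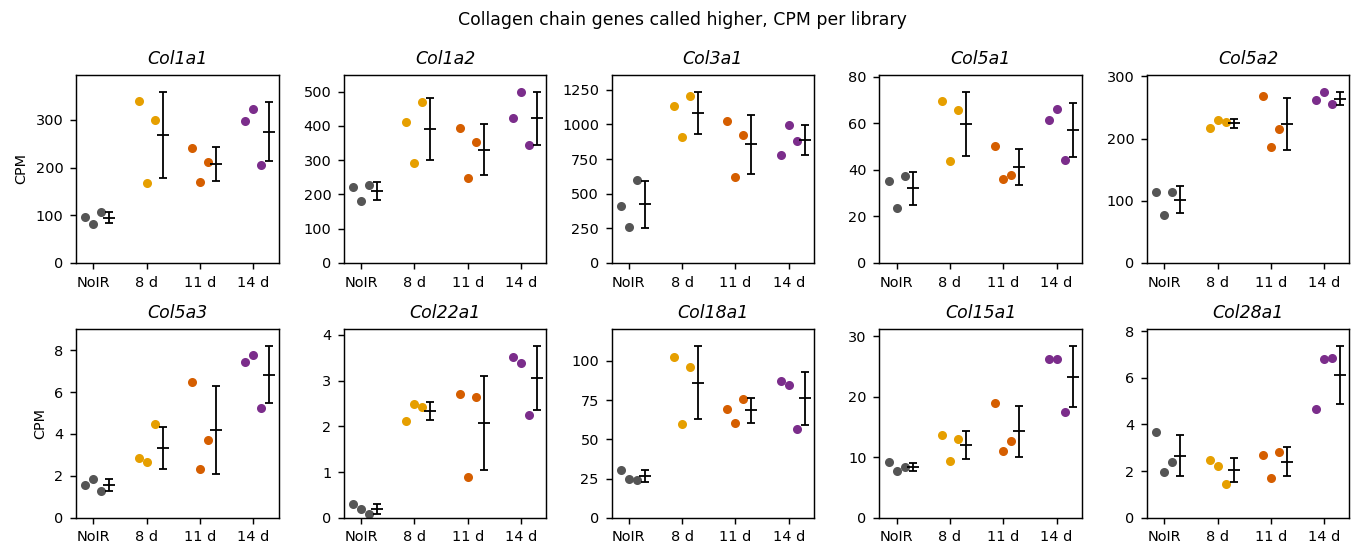
CPM (y axis) per library (points) in the 4 groups (x axis) for 10 collagen chain genes that rose at one time or more, with the mean and SD beside the points. Col1a1 and Col5a2 are higher in all 9 irradiated libraries, Col15a1 and Col5a3 are highest at 14 d, and Col28a1 is higher at 14 d alone.

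The remaining fibrillar genes were low. Col2a1, the main chain of cartilage, held 1 count in each unirradiated library, and 34 counts at 8 d, 36 at 11 d and 34 at 14 d over 3 libraries. The count ratios to unirradiated lung were 13.6 (95% counting interval 4.29 to 69.4), 15.2 (4.80 to 77.0) and 12.7 (3.99 to 64.5), and the gene was called higher at each time (adjusted p = 0.0015, 0.00053 and 0.00085). With so few control counts, Col2a1 passed the expression filter only through irradiated libraries, so its calls are not independent of the filter. They stayed calls with no filter. Of 5 cartilage markers that were tested 1 rose at each time, Hapln1, a link protein of proteoglycan aggregates, from 0.840 ± 0.681 to 6.96 ± 0.406 CPM at 8 d, and 1 fell at 11 d and 14 d, Chad. The cartilage proteoglycan gene Acan had 1 count without irradiation and 14, 8 and 10 at the later times, and Comp, a cartilage matrix protein, 2 and then 16, 27 and 24. The summed cartilage markers ranged from 40.7 to 55.8 CPM without irradiation and from 32.2 to 54.5 CPM after it, mostly from Matn4 and Chad. Matn1 and Ucma were at 0 in all unirradiated libraries, and their later counts are not given here. Acan, Comp, Matn1 and Ucma were picked with their values known and do not stand for the list. Across the 5 tested markers the median log2 change was -0.01 on day 8, -0.14 on day 11 and 0.19 on day 14. The part of cartilage in the Col2a1 values was not tested.

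Col11a2 and Col24a1, minor fibrillar chains, were called at 14 d, with 0.869 ± 0.628 against 2.33 ± 0.976 CPM and 0.395 ± 0.0852 against 1.11 ± 0.226 CPM. Groups overlapped for Col11a2 (log2 change 1.42, SE 0.49, adjusted p = 0.033), whose call was lost without unirradiated replicate 2 or 3 or 14 d replicate 1 or 2 (adjusted p between 0.080 and 0.13). Col24a1 rose by 1.48 (SE 0.38, adjusted p = 0.0061) and passed the expression filter mainly through irradiated libraries. Col11a1 had log2 changes of 1.16, 0.79 and 1.09 that did not pass, though those at 8 d and 14 d did without unirradiated replicate 1 (adjusted p = 0.048 and 0.031). Without the same library Col11a2 also passed at 8 d (adjusted p = 0.05 as rounded, just under the threshold) and at 11 d (adjusted p = 0.022). Col27a1, a fibrillar chain of cartilage and thin fibrils, was the 1 member that fell, from 11.1 ± 2.88 CPM to 6.83 ± 1.05 at 11 d (log2 change -0.70, SE 0.20, adjusted p = 0.015) and 7.39 ± 0.820 at 14 d (log2 change -0.58, adjusted p = 0.034). Without unirradiated replicate 1, the highest control, adjusted p rose to 0.09 and 0.19. The 11 d call was also lost without 11 d replicate 1 (adjusted p = 0.076), and that at 14 d without unirradiated replicate 2 or 14 d replicate 1 or 3 (adjusted p between 0.066 and 0.11) and with a replicate block (adjusted p = 0.055).

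Marker lists of cells that make fibrillar collagen moved in different directions beside it. The lists share genes and are not separate readings. Sfrp1 is in the adventitial fibroblast and activated myofibroblast lists, and Acta2 and Tagln are in the activated myofibroblast and smooth muscle lists. Of all genes 13.0%, 19.4% and 20.0% were higher and 10.6%, 17.8% and 18.9% lower at 8, 11 and 14 d. Alveolar fibroblast markers fell in 5 of 11 at 8 d, 8 at 11 d and 7 at 14 d with none higher, and summed to between 5216 and 5609 CPM without irradiation and between 2422 and 2733 CPM at 14 d. Gpc3, a membrane proteoglycan, went from 304 ± 48.4 to 79.1 ± 13.0 CPM at 14 d. Adventitial fibroblast markers summed to 2440 to 2924 CPM and then to 922 to 1154 CPM at 14 d, with 5 of 9 lower and 1, the Wnt antagonist gene Sfrp1, higher. Smooth muscle and pericyte markers fell in 11 of 15 at 14 d and rose in 1, Rgs5, with sums of 778 to 934 and 445 to 499 CPM. All 8 mesothelial markers fell by 14 d, from 589 to 718 CPM in sum to 187 to 246. Of 11 tested markers of activated myofibroblasts 3 rose and none fell at 8 d (median log2 change 0.02), 4 rose and 1 fell at 11 d (median -0.21), and 6 rose and 3 fell at 14 d (median 0.68). All 12 listed summed to between 1297 and 1379 CPM in controls, 1220 and 1446 on day 8, 1844 and 2924 on day 11, and 2469 and 3320 on day 14. At 14 d Tnc, a matrix glycoprotein, rose by 3.28 and Grem1, a BMP antagonist, by 5.05 on the log2 scale, and Spp1, which macrophages also express, by 4.88. The 3 markers that fell at 14 d are not named here, so the named genes do not stand for the list. The part of Spp1 in the sums of this list was not separated. The part of these cell types in the fibrillar values was not tested.

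Type IV genes lie in head-to-head pairs. Col4a1 and Col4a2 on chromosome 8 overlap by 22 bases at their starts, Col4a4 and Col4a3 on chromosome 1 lie 71 bases apart, and Col4a6 and Col4a5 on chromosome X 1308 bases apart. The pair on X is shown here because both of its genes fell, and Col1a2 and Col3a1 because both rose with their class. The stretches come from the RefSeq promoter table (GRCm38.p6, the assembly of mm10), cover no annotated exon of their own gene, and run 5′ to 3′ on the strand of the gene. That of Col1a2 lies inside the gene by the coordinates given above (4504814 to 4541544), past the start used there. Capitals mark matches, on either strand, to CCAAT (the box bound by NF-Y), GGGCGG (the GC box bound by Sp1), TATAAA (the TATA box) and CAGACA (a sequence that SMAD proteins can bind).
Col4a5, chrX:141475169-141475384, plus strand: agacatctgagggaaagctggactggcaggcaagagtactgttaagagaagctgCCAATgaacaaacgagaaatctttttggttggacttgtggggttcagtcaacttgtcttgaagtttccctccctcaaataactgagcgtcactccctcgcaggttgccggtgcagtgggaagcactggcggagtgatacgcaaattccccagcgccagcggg
Col4a6, chrX:141474077-141474326, minus strand: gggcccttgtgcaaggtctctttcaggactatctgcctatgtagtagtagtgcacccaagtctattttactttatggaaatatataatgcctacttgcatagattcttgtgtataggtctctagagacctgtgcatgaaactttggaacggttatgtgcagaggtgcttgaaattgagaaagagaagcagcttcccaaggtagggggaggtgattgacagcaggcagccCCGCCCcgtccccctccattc
Col1a2, chr6:4505370-4505492, plus strand: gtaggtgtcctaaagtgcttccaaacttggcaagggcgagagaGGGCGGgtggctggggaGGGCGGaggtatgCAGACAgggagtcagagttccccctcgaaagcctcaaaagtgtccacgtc
Col3a1, chr1:45311288-45311537, plus strand: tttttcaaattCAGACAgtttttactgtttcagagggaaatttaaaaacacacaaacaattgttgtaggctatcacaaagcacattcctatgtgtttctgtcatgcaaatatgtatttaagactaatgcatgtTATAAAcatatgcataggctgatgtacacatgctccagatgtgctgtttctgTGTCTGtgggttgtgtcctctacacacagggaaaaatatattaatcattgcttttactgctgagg

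The printed stretches of X hold 1 CCAAT beside Col4a5 and 1 GC box beside Col4a6. That of Col1a2 has 2 GC boxes and 1 CAGACA, and Col3a1 has 1 TATAAA and 2 CAGACA. Outside the printed letters the full window of Col4a5 also holds a GC box and that of Col1a2 a CCAAT. Some RefSeq starts, such as that of Col1a2, lie inside the gene by the coordinates used here. In the full 250 bases before the RefSeq start, 35 of the 44 collagen genes matched the table, with 38 windows. Of these 57.9% held GGGCGG, beside 32.7% of all 32851 windows. The shares for CCAAT were 34.2% and 33.8%, for TATAAA 13.2% and 12.4%, and for CAGACA 23.7% and 17.1%. Of the 8 windows of fibrillar genes 3 held CAGACA, and of the 5 windows of type IV genes 0. Matches may overlap and are descriptions of letters, not sites.

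Col4a1 and Col4a2, the widespread chains, had no call. Col4a1 (chromosome 8, 11198423 to 11312826, minus strand) read 1098, 758 and 966 CPM without irradiation, 1592, 968 and 1494 at 8 d, 1170, 1033 and 1214 at 11 d, and 1162, 1392 and 873 at 14 d. The groups overlapped at every time, with log2 changes of 0.52 (SE 0.21, adjusted p = 0.094), 0.28 and 0.28. Without 8 d replicate 2 the 8 d difference passed (adjusted p = 0.021). Col4a2 read 829, 612 and 761 CPM, then 1243, 640 and 1003, then 708, 743 and 846, and at 14 d 792, 931 and 513, with log2 changes of 0.39, 0.06 and 0.02.

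Of the chains of the barrier trimer Col4a5 was lower at each time, Col4a3 at 11 d and 14 d, and Col4a4 had no call. Col4a5 (chromosome X, 141475385 to 141689234) went from 168, 133 and 162 CPM to 98.6, 79.2 and 122 at 8 d, 82.6, 79.9 and 73.7 at 11 d, and 95.8, 106 and 76.8 at 14 d. Every irradiated library lay below every control. Col4a5 fell by 0.63 (SE 0.16, adjusted p = 0.013), 0.97 (SE 0.16, adjusted p = 0.00040) and 0.73 (SE 0.16, adjusted p = 0.0026) on the log2 scale, and the 8 d call was lost without unirradiated replicate 1 (adjusted p = 0.057). Col4a3 (chromosome 1, 82586921 to 82722059) read 250, 178 and 235 CPM, then 168, 101 and 175, then 113, 145 and 118, and at 14 d 158, 174 and 105. All 9 irradiated libraries were below the lowest control, 178 CPM. Its log2 changes were -0.58 (SE 0.22, adjusted p = 0.075, but 0.042 in DESeq2), -0.82 (SE 0.22, adjusted p = 0.010) and -0.60 (SE 0.22, adjusted p = 0.044). The 14 d call did not hold with library size alone (adjusted p = 0.056), with a replicate block (adjusted p = 0.065), or without unirradiated replicate 1 or 3 or 14 d replicate 1 or 3 (adjusted p between 0.07 and 0.17). Col4a4 was measured at 143 ± 32.3, 138 ± 35.1, 116 ± 10.8 and 123 ± 34.0 CPM and had log2 changes of -0.05, -0.30 and -0.22 that did not pass.

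Col4a6, which joins Col4a5 in basement membranes of smooth muscle and stratified epithelium, read 21.1, 17.9 and 17.8 CPM without irradiation, 12.2, 7.21 and 14.0 at 8 d, 9.26, 8.62 and 8.97 at 11 d, and 6.70, 10.6 and 5.80 at 14 d. No irradiated library reached a control. It fell by 0.77 (SE 0.24, adjusted p = 0.030), 1.08 (SE 0.24, adjusted p = 0.0028) and 1.30 (SE 0.24, adjusted p = 0.00060) on the log2 scale. The 8 d call was lost with library size alone (adjusted p = 0.056) or without unirradiated replicate 1 or 2 or 8 d replicate 2 (adjusted p between 0.059 and 0.11).

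**Figure D4:**
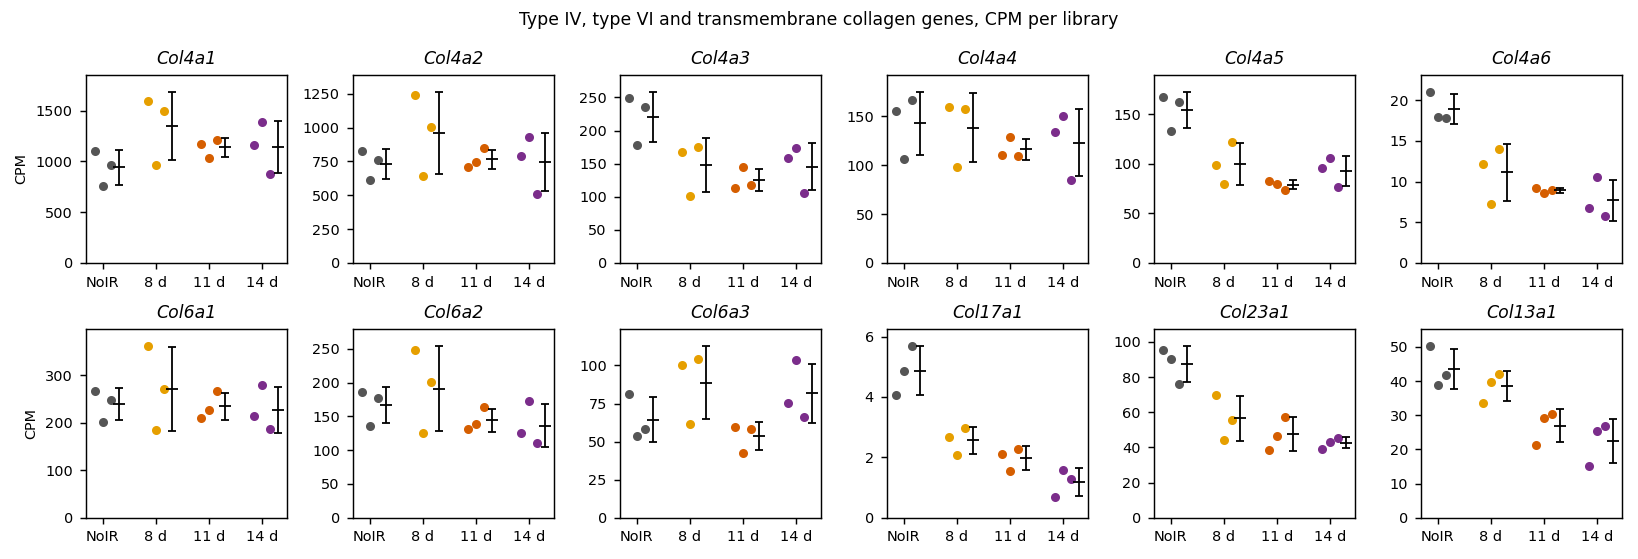
CPM (y axis) per library (points) in the 4 groups (x axis) for the type IV genes, 3 type VI genes and 3 transmembrane collagen genes, with the mean and SD beside the points. Col4a3, Col4a5 and Col4a6 are below the controls in all 9 irradiated libraries, while Col4a1, Col4a2 and the type VI genes overlap them.

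Beside these values, alveolar type 1 markers fell in 6 of 11 at 8 d, 8 at 11 d and 9 at 14 d, and rose in 1, 1 and 0. Their sum went from between 9997 and 10148 CPM to between 4064 and 4622 CPM at 14 d. Endothelial markers fell in 9, 13 and 13 of 13, from 6479 to 6695 CPM in sum to 1374 to 1675 at 14 d, and type 2 cell markers in 2, 5 and 5 of 9, with 1 higher at 14 d, Lyz2, which macrophages also express. The sums of the type 2 list lay between 39053 and 43044 CPM without irradiation and between 34829.7 and 40614 at 14 d. The part of these cells in the type IV values was not tested. Of 17 other basement membrane genes 2 fell and 1 rose at 8 d, 9 fell and 1 rose at 11 d, and 5 fell and 2 rose at 14 d, with medians of -0.05, -0.57 and -0.34. Lama1, a laminin chain of embryonic basement membranes, went from 0.945 ± 0.136 to 5.08 ± 2.71 CPM at 8 d and 5.78 ± 1.85 at 14 d (log2 changes 2.42 and 2.60). Lama3, a laminin chain of epithelium, changed by -0.83, -1.20 and -0.83, and Nid2, a linker of laminin and collagen IV, by -0.43, -0.91 and -0.87, each called at all 3 times. Pxdn, the peroxidase that cross-links collagen IV, changed by -0.49 (adjusted p = 0.1), -0.99 and -1.12, and the last 2 were calls.

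Ratios between chains were compared within each library, per kilobase of transcript, which removes the scaling between libraries. Over 9 pairs an exact permutation test across the 4 groups was adjusted for the 9 tests. Col4a3 stood to Col4a1 at 0.182 ± 0.00609 in controls (SD, n = 3). At 8 d the ratio was 0.0843 ± 0.00532, followed by 0.0862 ± 0.0192 at 11 d and 0.0982 ± 0.00617 at 14 d (exact permutation test, adjusted p = 0.018). The controls lay between 0.176 and 0.188 and no irradiated library was above 0.108. Col4a3 to Col4a4, which share a molecule and a start region, went from 1.84 ± 0.166 to 1.26 ± 0.0460, 1.27 ± 0.0582 and 1.40 ± 0.0471 (exact permutation test, adjusted p = 0.0064). Exons of an antisense transcript, C430014B12Rik, cover 5.65% of the exon bases of Col4a3, and since the strand setting of the counting is not given, its reads cannot be told apart. Col4a1 to Col4a2 was 1.25 ± 0.0430, 1.39 ± 0.125, 1.46 ± 0.137 and 1.52 ± 0.125 and did not pass (exact permutation test, adjusted p = 0.12).

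Col1a1 to Col1a2, whose chains join in a fixed proportion in the protein, was 0.410 ± 0.0124 in controls, 0.611 ± 0.119 on day 8, 0.571 ± 0.0395 at 11 d and 0.584 ± 0.0483 at 14 d (exact permutation test, adjusted p = 0.037). All irradiated libraries were above all controls, with 0.515 the lowest and 0.421 the highest control. Without any 1 of unirradiated replicates 1, 2 and 3 adjusted p was between 0.061 and 0.069. Col6a1 to Col6a2 went from 1.38 ± 0.0465 and 1.37 ± 0.0659 at 8 d to 1.56 ± 0.0174 at 11 d and 1.61 ± 0.0384 at 14 d (exact permutation test, adjusted p = 0.016). Col5a1 to Col5a2 was 0.247 ± 0.00795 without irradiation and 0.146 ± 0.00748 at 11 d, and Col6a3 to Col6a1 0.122 ± 0.0155 and 0.164 ± 0.00432 at 14 d (exact permutation test, adjusted p = 0.039 for each). Leaving out 1 library at a time, Col5a1 to Col5a2 was lost in 8 of the 12 runs (exact permutation test, adjusted p up to 0.11). Col6a3 to Col6a1 was lost in 10 of the 12 runs (exact permutation test, adjusted p up to 0.10). Col1a1 to Col3a1 and Col8a1 to Col8a2 did not pass (exact permutation test, adjusted p = 0.53 and 0.3).

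**Figure D5:**
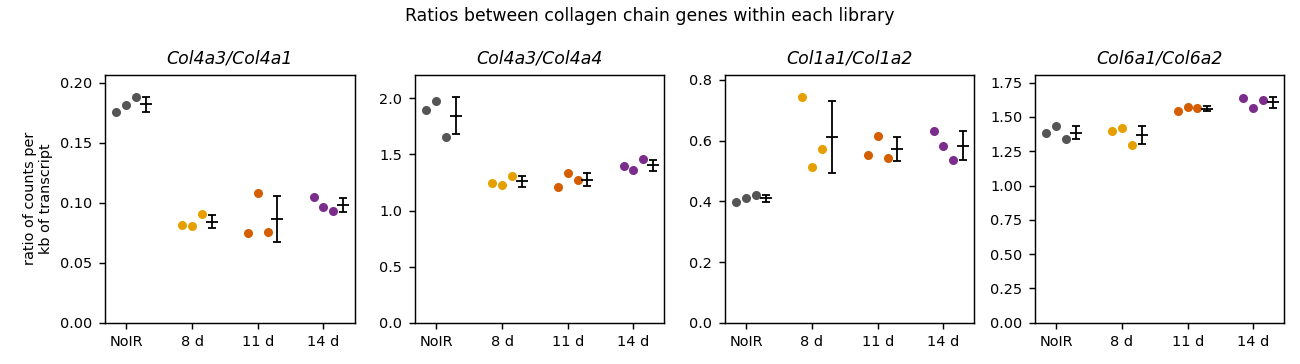
Ratio of counts per kilobase of transcript (y axis) within each library (points) for 4 pairs of collagen chain genes by group (x axis), with the mean and SD beside the points. Col4a3 to Col4a1 falls from about 0.182 to 0.108 or less, and Col1a1 to Col1a2 lies above its controls in all irradiated libraries.

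Of the type VI genes Col6a1 read 267, 202 and 246 CPM without irradiation, 360, 184 and 270 at 8 d, 210, 226 and 266 at 11 d, and 213, 280 and 187 at 14 d. Col6a2 read 186, 136 and 177 CPM, then 248, 125 and 201, then 132, 138 and 164, and at 14 d 126, 173 and 111. Groups overlapped for both at every time, and no log2 change exceeded 0.29 in size. Col6a3, the long chain of the filament, read 81.2, 53.6 and 58.3 CPM, then 100.3, 61.5 and 104, then 59.4, 42.8 and 58.0, and at 14 d 75.6, 103.6 and 66.0. Its log2 change of 0.46 at 8 d did not pass (adjusted p = 0.16), but did without 8 d replicate 2 (adjusted p = 0.037). Col6a5, one of the chains that can replace Col6a3, was near the filter, with 1.39, 0.443 and 1.12 CPM without irradiation, 1.69, 0.946 and 2.50 at 8 d, 0.888, 0.562 and 0.726 at 11 d, and 0.810, 1.51 and 0.626 at 14 d. Col6a4 stood between 1.19 and 2.28 CPM in all libraries. Col6a6 was called higher at 14 d on 17 and 53 counts (log2 change 1.77, SE 0.61, adjusted p = 0.033), a call lost with no filter (adjusted p = 0.051), in a fit of those groups alone (adjusted p = 0.055), and without unirradiated replicate 2 or 3 or any 1 of the 14 d replicates (adjusted p between 0.052 and 0.096). It passed the expression filter only through irradiated libraries.

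Among FACIT genes Col22a1, a collagen of tissue junctions such as that of muscle and tendon, had the highest log2 change of all 42 genes tested at 8 d and 14 d. It read 0.301, 0.184 and 0.0723 CPM without irradiation, 2.11, 2.48 and 2.42 at 8 d, 2.70, 0.890 and 2.64 at 11 d, and 3.51, 3.39 and 2.25 at 14 d. These are 15, 158, 134 and 222 counts per group, and every irradiated library lay above the highest control. Col22a1 rose by 3.62 (SE 0.49, adjusted p = 0.00014), 3.46 (SE 0.50, adjusted p = 1e-04) and 4.01 (SE 0.49, adjusted p = 1.5e-05) on the log2 scale. With controls this low, Col22a1 passed the expression filter only through irradiated libraries, so its calls and rank are not independent of the filter. The calls stayed with no filter. Skeletal muscle markers summed to between 6.31 and 12.9 CPM without irradiation and between 10.3 and 16.6 CPM after it, with 2 of 7 tested higher at each time and 1 lower at 14 d, and their part was not tested.

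The larger FACIT genes went slightly down at 11 d. Col16a1 read 38.6, 33.3 and 34.8 CPM without irradiation, 39.6, 34.4 and 42.6 at 8 d, 24.3, 26.8 and 27.4 at 11 d, and 29.5, 34.9 and 28.9 at 14 d. Col14a1, a regulator of fibril growth, read 56.8, 56.4 and 48.0 CPM, then 64.4, 35.2 and 54.6, then 36.8, 38.1 and 35.7, and at 14 d 36.6, 52.2 and 35.4. Col12a1, which sits on type I fibrils under load, read 87.4, 61.0 and 49.1 CPM, then 59.4, 40.7 and 61.6, then 40.6, 43.8 and 36.6, and at 14 d 65.6, 75.3 and 35.8. All 3 genes had every 11 d library below every control, and the share of all genes without overlap was not counted. Their log2 changes were -0.44 (SE 0.13, adjusted p = 0.015), -0.54 (SE 0.20, adjusted p = 0.044) and -0.71 (SE 0.26, adjusted p = 0.044). None was called at 8 d or 14 d. Col14a1 passed at 14 d without 14 d replicate 2 (adjusted p = 0.039). The Col16a1 call was lost without unirradiated replicate 1 (adjusted p = 0.068) or 11 d replicate 1 (adjusted p = 0.067). That of Col14a1 was lost with a replicate block (adjusted p = 0.061) and without any 1 of 5 libraries, unirradiated replicates 1 and 2 and all 11 d replicates (adjusted p between 0.081 and 0.12). Leaving out the same 5 libraries 1 at a time also ended the Col12a1 call (adjusted p between 0.068 and 0.22). Col9a3, Col19a1 and Col20a1, with group means between 0.184 and 1.82 CPM, had no call.

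Col18a1 and Col15a1 are the multiplexins, basement membrane collagens whose ends give rise to endostatin and a related fragment. Col18a1 (chromosome 10, 77052178 to 77166548, minus strand) read 30.7, 24.9 and 24.0 CPM without irradiation, 102.4, 59.6 and 96.3 at 8 d, 69.2, 60.3 and 75.9 at 11 d, and 86.9, 84.5 and 56.8 at 14 d. All irradiated libraries stood above the controls by a wide margin. Col18a1 rose by 1.70 (SE 0.21, adjusted p = 7.2e-05), 1.37 (SE 0.21, adjusted p = 0.00017) and 1.52 (SE 0.21, adjusted p = 4.9e-05). Col15a1 rose later. It read 9.15, 7.79 and 8.42 CPM without irradiation, 13.7, 9.37 and 13.0 at 8 d, 19.0, 11.1 and 12.7 at 11 d, and 26.2, 26.2 and 17.5 at 14 d. Its log2 changes were 0.51 (SE 0.22, adjusted p = 0.12), 0.76 (SE 0.22, adjusted p = 0.015) and 1.46 (SE 0.22, adjusted p = 0.00011), and the 11 d call was lost without unirradiated replicate 2 (adjusted p = 0.057) or 11 d replicate 1 (adjusted p = 0.10). Both rose while endothelial markers, given above, fell.

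The transmembrane collagens fell, apart from Col25a1. Col17a1, the hemidesmosome collagen that anchors epithelium to its basement membrane, read 4.07, 4.87 and 5.67 CPM without irradiation, 2.67, 2.07 and 2.96 at 8 d, 2.11, 1.55 and 2.28 at 11 d, and 0.675, 1.58 and 1.29 at 14 d. No irradiated library reached a control. Col17a1 fell by 0.92 (SE 0.27, adjusted p = 0.025), 1.30 (SE 0.28, adjusted p = 0.0024) and 2.02 (SE 0.29, adjusted p = 7.3e-05) on the log2 scale, and the 8 d call was lost without unirradiated replicate 2 or 3 or 8 d replicate 1 or 2 (adjusted p between 0.051 and 0.085). Basal airway markers, the cells best known for it, summed to between 1.43 and 3.87 CPM in controls, and at 8, 11 and 14 d they ranged from 2.30 to 4.36, from 1.12 to 1.87 and from 1.93 to 2.83. Of the 3 tested Krt14 fell and Trp63 rose at 14 d, and their part was not tested.

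Col23a1 read 95.5, 90.6 and 76.2 CPM without irradiation, 69.9, 44.3 and 55.5 at 8 d, 38.7, 46.7 and 57.4 at 11 d, and 39.2, 43.3 and 45.4 at 14 d, again with no overlap. Its log2 changes were -0.63 (SE 0.18, adjusted p = 0.018), -0.88 (SE 0.18, adjusted p = 0.0014) and -1.04 (SE 0.18, adjusted p = 0.00030), and the 8 d call was lost without unirradiated replicate 1 or 2 or 8 d replicate 2 or 3 (adjusted p between 0.053 and 0.075). Col13a1, found at cell-matrix junctions, was at 43.5 ± 5.90 CPM, 38.5 ± 4.34, 26.9 ± 4.88 and 22.4 ± 6.36 and was called lower at 11 d and 14 d (log2 changes -0.69 and -0.95). The 11 d call was lost without unirradiated replicate 1 (adjusted p = 0.069) or 11 d replicate 1 (adjusted p = 0.079). Col25a1, at 0.268 ± 0.315 CPM without irradiation and 1.03 ± 0.516 at 8 d, had log2 changes of 1.91, 1.88 and 1.68 that did not pass (adjusted p = 0.068, 0.054 and 0.081) but did in DESeq2 (adjusted p = 0.026, 0.021 and 0.039) and without unirradiated replicate 3 (adjusted p = 0.011, 0.0080 and 0.0099). The 8 d value also passed without 8 d replicate 1 (adjusted p = 0.044) and the 11 d value with no filter (adjusted p = 0.049).

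Col28a1, a collagen known from peripheral nerve, was called at 14 d alone. It stood at 2.67 ± 0.883 CPM in controls, 2.05 ± 0.530 and 2.40 ± 0.617 at 8 d and 11 d, and 6.10 ± 1.24 at 14 d, and all 14 d libraries lay above the other 9. The 14 d level was higher than that of controls by 1.20 (SE 0.29, adjusted p = 0.0040), of 8 d by 1.58 (SE 0.30, adjusted p = 0.0025) and of 11 d by 1.35 (SE 0.29, adjusted p = 0.034). The last difference was lost without 11 d replicate 2 or 3 or any 1 of the 14 d replicates (adjusted p between 0.07 and 0.19). Nerve and glia markers summed to between 216 and 290 CPM without irradiation and between 83.2 and 109 CPM at 14 d, with 1 of 4 tested higher and 2 lower. Prx, which endothelium also expresses, gave 232 ± 45.5 and 49.0 ± 8.83 CPM of these sums, and the part of the list was not tested. The anchoring fibril gene Col7a1, the network genes Col8a1, Col8a2 and Col10a1, and Col26a1 had no call, with group means between 0.184 and 15.1 CPM. Without unirradiated replicate 3, the lowest control, Col7a1 passed as lower at 8 d and 11 d (adjusted p = 0.043 and 0.0077). Col8a2 had log2 changes of -0.44, -0.70 and -0.65 (adjusted p = 0.27, 0.058 and 0.069), and its 11 d value passed in DESeq2 (adjusted p = 0.037) and in a fit of those groups alone (adjusted p = 0.018). Its 14 d value passed without 14 d replicate 1 (adjusted p = 0.045).

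Between irradiated times few collagen genes differed. From 8 d to 11 d 1 of 42 was called (2.38% beside 2.14% of all genes), Col16a1, which was lower (0.394% of all genes were lower and 1.75% higher). From 11 d to 14 d 1 was called (2.38% beside 1.80%), Col28a1, which was higher (0.813% of all genes were higher and 0.983% lower). From 8 d to 14 d there were 6 (14.3% beside 15.4%), 3 higher and 3 lower (8.10% and 7.29% of all genes). Among the fibrillar genes Col1a1, Col1a2, Col3a1 and Col5a2 had 14 d to 8 d log2 differences of 0.03, 0.11, -0.29 and 0.23, none of which passed (adjusted p = 0.95, 0.78, 0.51 and 0.38).

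Of 17 genes for chain modification and folding 2 rose and 2 fell at 8 d, 2 and 3 at 11 d, and 4 and 3 at 14 d, with medians of 0.06, -0.07 and -0.03. Beside them 23.6%, 37.2% and 38.9% of all genes were called at these times. Serpinh1, the collagen chaperone HSP47, stood at 207 ± 18.6 CPM without irradiation and 216 ± 32.2, 198 ± 11.2 and 182 ± 6.31 later. Colgalt2, a collagen galactosyltransferase, fell by 2.13 on the log2 scale at 14 d, while its relative Colgalt1 rose by 0.98. P4ha3, a prolyl hydroxylase subunit, rose at 8 d and 14 d (0.79 and 0.81), and P3h4, a partner of lysyl hydroxylase, changed by -1.05 at 14 d. Of 12 tested genes for export and propeptide cleavage 1 rose and 2 fell at 8 d, and none rose and 3 fell at 11 d and 14 d. The procollagen C-proteinase enhancers Pcolce and Pcolce2 went from 59.0 ± 5.49 to 30.4 ± 2.93 CPM and from 145 ± 7.50 to 32.2 ± 11.1 CPM at 14 d, and the proteinase gene Tll1 changed by -1.12, -0.91 and -1.18. Adamts2, which removes the amino-terminal propeptide, rose at 8 d by 0.60.

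Cross-linking enzymes rose in 4 of 5 at 8 d and in 2 at 11 d and 14 d, with none lower. Lox, the lysyl oxidase that cross-links collagen and elastin, went from 22.7 ± 0.592 CPM to 46.8 ± 5.67, 60.8 ± 16.3 and 72.0 ± 4.82, and Loxl4 had log2 changes of 1.15, 0.95 and 1.01. Loxl1 and Loxl2 were called at 8 d only, with 0.78 and 0.50. Genes that degrade collagen rose in 8, 9 and 8 of 10, with none lower and medians of 1.35, 1.52 and 1.64. Mmp14, a membrane collagenase, went from 71.8 ± 11.1 to 308 ± 23.2 CPM at 14 d, and the collagenases Mmp8 from 2.29 ± 0.600 to 33.5 ± 11.1 and Mmp13 from 0.639 ± 0.0687 to 5.37 ± 2.42. Mmp12, an elastase of macrophages, rose by 4.32 on the log2 scale at 14 d.

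Collagen-binding small proteoglycans, which space fibrils, fell in 3, 5 and 5 of 9 tested, with none higher. Dcn, decorin, went from 145 ± 20.6 to 66.7 ± 17.2 CPM at 14 d, and Prelp, Podn and Fmod changed by -1.04, -0.84 and -0.66 at that time. Collagen receptors rose in 3 and fell in 2 of 10 at 8 d, 1 and 2 at 11 d, and 2 and 2 at 14 d. Lair1, an inhibitory collagen receptor of leukocytes, went from 10.03 ± 1.33 to 76.1 ± 18.8 CPM at 14 d, and Itga1, the collagen-binding integrin chain, from 210 ± 23.7 to 88.8 ± 5.25. Ddr2, a fibrillar collagen receptor of fibroblasts, changed by -0.31, -0.49 and -0.43 and was called each time, while Itga2 rose by 0.53 at 8 d.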

How the data were processed

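Values are the deposited counts per gene symbol, which the authors made after alignment with TopHat to mm10, per the submitters' processing notes. No source used here names the TopHat version, the counting program, its annotation or its strand setting. RNA was extracted with Trizol and libraries were made with a directional kit, per the labels' protocols. Counts of 35 repeated symbols (79 lines) were summed, none of them a collagen gene.

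The main test was edgeR 4.0.16 in R 4.3.3, quasi-likelihood, over all 12 libraries and the 16484 genes that passed its default expression filter, with TMM scaling. SE is the size of the log2 change over the root of the F statistic. Values after ± are SD over 3 libraries. Levels per kilobase used the principal protein-coding transcript in GENCODE M21, which also gave coordinates. Counting intervals are exact at 95% and cover counting error only. The test was run on simulated counts for 15555 genes, with means taken from the unirradiated libraries. Genes of very low unirradiated level, such as Col2a1 and Col22a1, were left out of it. Only 50 genes were changed per fold, far fewer than the 3891 called in the real 8 d comparison, so its rates need not hold there. It recovered 24% of 1.5-fold increases, 76% of 2-fold and 100% of 4-fold ones, and 13 of its 161 calls were false. Values in every library are given for up to 4 genes per class with the lowest p of a joint test of the 4 groups and a mean of at least 1 CPM, with Col1a1, Col1a2, Col3a1, Col4a1, Col4a2 and Col6a1 added. Of each of 7 collagen-related lists up to 4 genes by the same p were eligible for naming. Members, 14 marker lists and pairs were chosen with earlier results of these data known. Genes of these lists named outside the rule (Sftpc, Ager, Acan, Comp, Matn1, Ucma and Serpinh1) were picked with their values known. Other settings tried were DESeq2 1.42.0, scaling by median of ratios or by library size alone, no expression filter, the replicate number as a block, fits restricted to the groups in question, and leaving out 1 library at a time.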

Additional observations from a re-analysis of the deposited data

Results flagged for a closer look

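Levels differed between irradiated times, by the edgeR test of one irradiated time against another, for 7 collagen genes. The unirradiated libraries carry no day, so no time had a matched control of its own. The shares called lay near those of all genes. Between 8 d and 14 d 14.3% of tested collagen genes were called, beside 15.4% of all genes. The shares were 2.38% beside 2.14% between 8 d and 11 d, and 2.38% beside 1.80% between 11 d and 14 d. From 8 d to 14 d Col5a3 (log2 difference 1.03), Col15a1 (0.96) and Col28a1 (1.58) were higher and Col13a1 (-0.78), Col17a1 (-1.10) and Col27a1 (-0.68) lower. From 8 d to 11 d Col16a1 was lower (-0.57), and from 11 d to 14 d Col28a1 was higher (1.35). In each of these 8 differences the libraries of the 2 times did not overlap. The differences were picked by a test on the same libraries, so this adds no separate support. How many of all genes had no overlap was not counted. The differences of Col15a1 (adjusted p = 0.0088) and Col28a1 between 8 d and 14 d (adjusted p = 0.0025) were called in every alternative run. Those of Col5a3, Col13a1, Col16a1, Col17a1, Col27a1 and Col28a1 between 11 d and 14 d were each lost without at least 2 single libraries. Among them the Col13a1 difference was lost without 8 d replicate 3 (adjusted p = 0.072) or 14 d replicate 1 (adjusted p = 0.08). That of Col16a1 was lost without 8 d replicate 1 or 3 or any 1 of the 11 d replicates (adjusted p between 0.059 and 0.2), with a replicate block (adjusted p = 0.057) and in a fit of both groups alone (adjusted p = 0.1). That of Col27a1 was also lost with a replicate block (adjusted p = 0.056), that of Col17a1 in a fit of both groups alone (adjusted p = 0.069), and that of Col5a3 with library size alone (adjusted p = 0.06) or a replicate block (adjusted p = 0.059).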

How the results depend on the processing

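Counts of called collagen genes against unirradiated lung ranged under the 6 alternatives that keep all libraries from 12 to 15 (8 d), from 18 to 21 (11 d) and from 19 to 22 (14 d), and with 1 library left out from 9 to 13, 12 to 21 and 18 to 20. From 8 d to 11 d the count of 1 became 2 with no filter, 0 with a replicate block, 3 in DESeq2, 0 in a fit restricted to both groups, and 0 to 4 with 1 library left out. From 11 d to 14 d it was 2 in DESeq2 and 0 to 2 with 1 library left out, and from 8 d to 14 d 2 to 9 in place of 6. The cause of these shifts was not tested. The log2 shift from unirradiated to 14 d medians with 1 library left out ranged from 0.44 to 0.56 for Col1a1 to Col1a2, from -0.62 to -0.38 for Col5a1 to Col5a2 and from 0.32 to 0.50 for Col6a3 to Col6a1. Of the 134 gene changes recomputed 61 were calls. With the replicate block 55 of these stayed calls, 6 did not and 0 others passed. In DESeq2 all 61 stayed and 5 others passed. None changed direction where called. Of 18 same-numbered library pairs 5 correlated above 0.1 (range -0.35 to 0.29). Pairs of different number were not set beside them, so whether the numbers pair the samples was not settled. At this depth genes below about 1 CPM rest on few counts.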
